A study of Mus musculus with 17 samples.

Results

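This comparison sets the hippocampus of mice fed a fungal oil and a fish oil together against the hippocampus of mice fed a control diet with neither oil. It rests on 2 arrays of chip B, 1 for each diet, out of 17 arrays in the series. The chip B arrays of mice fed the fungal oil alone and the fish oil alone, 1 each, stand beside them, so that 4 hippocampus arrays are read together. All mice were males of the outbred stock Rj:NMRI, which were kept 10 to a cage and were not fully fasted when they were killed in the morning of day 57 or 58. Their ages are not given in the labels. The purified diets shared a fat-free AIN93G base and a fat mixture in which soybean oil made up 1.5% of the diet, sunflower oil 1.9%, palm olein 1.2%, milk fat 0.4% and medium chain triacylglycerol oil between 2.1% and 5.1%. In the test diets part of the medium chain oil gave way to 1.1% fungal oil rich in arachidonate, to 1.9% fish oil rich in docosahexaenoate, or to both. Of the 10 mice fed each diet, 5 were selected for the hippocampus. The labels do not say how many of them gave the RNA of an array or whether RNA was pooled. A cage of 10 could hold a whole diet group, so cage and diet cannot be told apart.

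Arachidonate and docosahexaenoate are the main long-chain polyunsaturated fatty acids of brain membrane phospholipids. Arachidonate released by phospholipases is the precursor of prostaglandins and leukotrienes, and docosahexaenoate is concentrated in synaptic membranes. Both also bind nuclear receptors such as the PPARs and RXRs and lower the activity of SREBP-1, the transcription factor that drives fatty acid synthesis genes in liver.

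Chip B measured 6540 probe sets besides its 55 control probe sets. The values are intensities, the brightness of a probe set after background subtraction, and dim probe sets can be negative. Probe sets were kept when their mean over the 4 hippocampus arrays was at or above the median of those means, 43.25, which left 3273. The dimmest probe set kept had a mean of 43.25 and the brightest one left out a mean of 43. Those with a mean at or above the 75th percentile, 183, number 1635 and are called bright. Of the kept probe sets 1166 carry 1 gene symbol, and these stand for 1068 genes. Where a gene has several probe sets the brightest over the hippocampus arrays was used. The array design shares some probe sets between related transcripts, as marked in their names; those of Sst, Mgp, Fn1, the globins, the ribosomal proteins and the histocompatibility genes are mostly of this kind, as are many others, and may mix family members. Each log2 ratio compares a single pair of arrays, with values under a floor of about 14.9 set to that floor. There is no replicate of either diet in the hippocampus, so no ratio has an error, none was tested, and a gene is said to read higher or lower on an array and not to respond to a diet. The only arrays of 1 diet on this chip are the 2 liver controls, which are used as a yardstick.

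The tissue label was checked against marker genes, as far as chip B holds them. The genes given here can tell brain from liver but not hippocampus from other brain regions. Of 25 listed genes of hippocampal pyramidal and granule cells 3 are on the chip, and 2 of these were kept. Of 15 listed neuronal genes 4 are on the chip. The neuronal surface protein gene Thy1 read between 4020 and 4392 on the 4 arrays and the neuronal tubulin gene Tubb3 between 532 and 562. Both were even across the diets. Gad1, the enzyme that makes the inhibitory transmitter GABA, read between 1834 and 1913, and the astrocyte filament gene Gfap between 410 and 497. The liver marker Alb, which encodes albumin, read 59 on the control array and -7 on the array of both oils and was not kept. Camk2a, a kinase of excitatory neurons, was also not kept, at 100, 41, 6 and 19 on the control, fungal oil, fish oil and both-oils arrays. Of the choroid plexus list only Aqp1, a water channel, is on the chip, and it read at most 19. The 4 arrays had nearly equal medians, from 41 to 46. The ratio of the 3-prime to the 5-prime control probe set of Gapdh, a measure of RNA and label integrity, was 0.947 on the control array, 0.878 on the fungal oil array and 0.943 on the both-oils array. The 3-prime control probe set of 18S ribosomal RNA read 1494, 293 and 852 on the same 3 arrays, and its part in the results was not tested. For the fish oil array no values of the control probe sets were analysed here.

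The arrays of both oils and of control differed little. The SD of the log2 ratio over the 3273 kept probe sets was 0.53, and its median was 0. In total 116 probe sets read at least 2-fold higher with both oils, which is 3.54% of those kept, and 85 read at least 2-fold lower, which is 2.6%. These are mostly dim: their median mean intensity was 67.6 for the higher and 78.2 for the lower ones, against 183 for all kept probe sets. One side lay at the floor in 11 of the higher and in 18 of the lower probe sets. Among the 1635 bright probe sets only 10 read at least 2-fold higher, or 0.612%, and 11 at least 2-fold lower, or 0.673%. At the level of genes with 1 symbol, 45 of 1068 read at least 2-fold higher, or 4.21%, and 28 at least 2-fold lower, or 2.62%.

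Set beside other pairs of arrays, 6.14% of kept probe sets differed at least 2-fold in either direction between both oils and control. The same share was 6.66% between fungal oil and control and 8.95% between fish oil and control, 2 comparisons that share this control array. Between the fish oil and fungal oil arrays it was 7.58%, between both oils and fungal oil 6.02%, and between both oils and fish oil 8.98%. The pairs that hold the fish oil array are the 3 with the highest shares. The 2 liver control arrays, filtered in the same way on liver intensities, differed at least 2-fold in 15.7% of their kept probe sets. Over the 1083 probe sets bright in both tissues the share was 0.923% for both oils against control in hippocampus and 3.23% for the liver control pair. By both measures the 2 diets in hippocampus lay closer together than the 2 liver arrays of 1 diet. In liver the Gapdh 3-prime to 5-prime ratios of those control arrays were 2.23 and 1.99, higher than in hippocampus, and the part of this in the comparison was not tested.

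**Figure D1:**
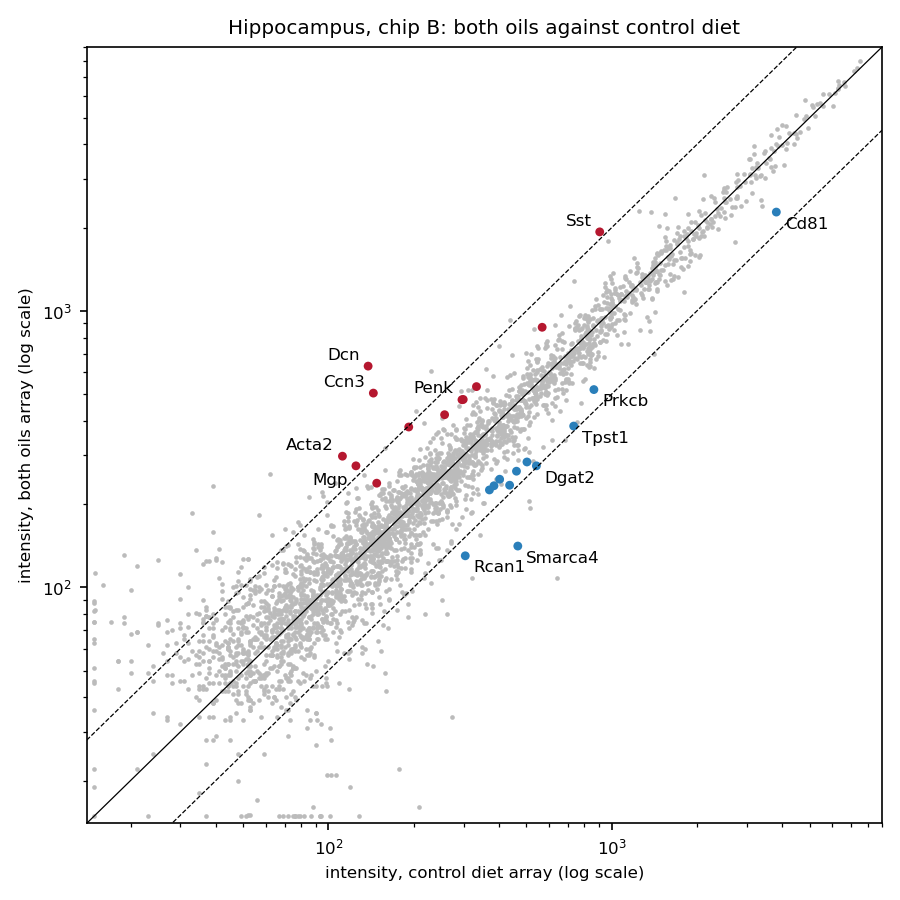
Intensity of each of the 3273 kept probe sets on the both-oils array (vertical, log scale) against the control array (horizontal, log scale), values under the floor set to it. The solid line is equality and the dashed lines are 2-fold; red and blue points are the 12 bright genes with the highest and the 12 with the lowest ratios, and the cloud widens toward low intensities.

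The position of the single-oil arrays shows which of the 2 arrays stands apart for a probe set. The both-oils array was the highest of the 4 in 60 of the 116 probe sets that read higher, and it lay at least 2-fold above all other arrays in 4. Of the 85 that read lower it was the lowest in 64, and it lay at least 2-fold below all others in 41. In the rest of the higher probe sets a single-oil array read at least as high as the both-oils array. These probe sets were chosen by the ratio of both oils to control, which itself favours the both-oils array as the extreme one. Over all 3273 kept probe sets it was the highest in 659 and the lowest in 927. Each other array also has probe sets of its own: 48 read at least 2-fold below the other 3 on the control array, 37 on the fungal oil array and 87 on the fish oil array. At least 2-fold above the other 3 were 8 on the control array, 13 on the fungal oil array and 13 on the fish oil array.

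**Figure D2:**
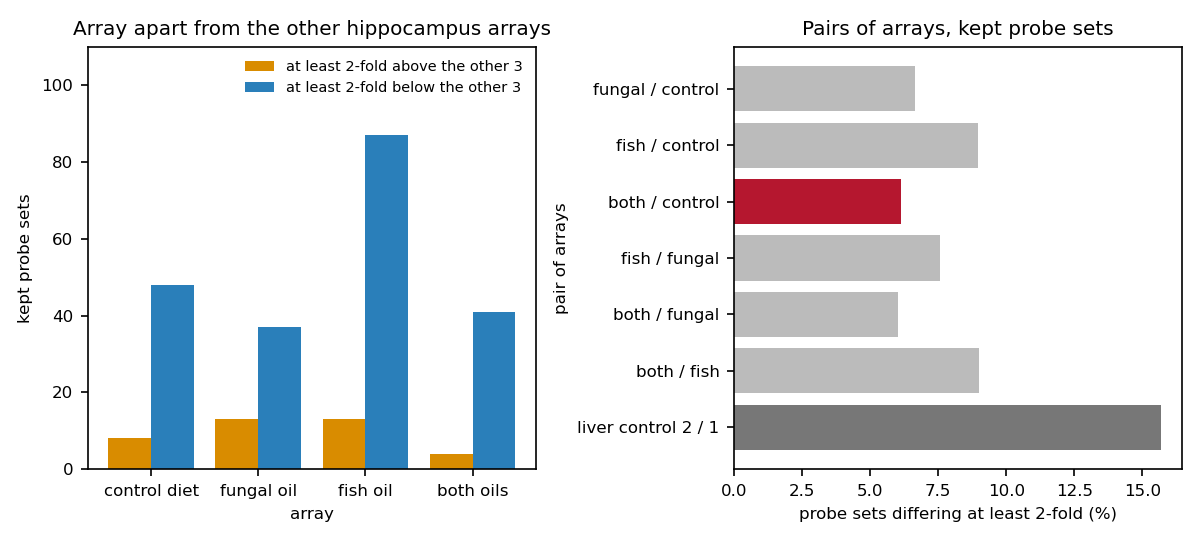
Left, number of kept probe sets in which 1 hippocampus array lies at least 2-fold above (orange) or below (blue) the other 3. Right, percent of kept probe sets that differ at least 2-fold between each pair of arrays, with both oils against control in red at 6.14% and the pair of liver control arrays in dark grey at 15.7%.

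The 12 bright genes highest with both oils relative to control were of mixed kinds, and several with the largest ratios encode matrix or contractile proteins. Dcn, which encodes decorin, a small proteoglycan that binds collagen fibrils, read 138 on the control array, 511 with fungal oil, 351 with fish oil and 631 with both oils. The control array was the lowest of the 4 by a wide margin and the both-oils array the highest. The log2 ratio of both oils to control was 2.19, a 4.57-fold difference. Ccn3, a secreted matricellular protein that is also a marker of hippocampal pyramidal neurons, read 144, 408, 304 and 504 in the same order, a log2 ratio of 1.81. Its arrays fall in the same order as those of Dcn. The other markers of hippocampal pyramidal and granule cells on the chip are Lmo4 and Pou3f1. Lmo4 read 581, 482, 379 and 582, and Pou3f1 was negative on every hippocampus array. Acta2, the actin of smooth muscle and pericytes, read 112 on the control array, 598 with fungal oil, 240 with fish oil and 298 with both oils, a log2 ratio of 1.41. Here the fungal oil array was the highest, and against the mean of the single-oil arrays the ratio turned to -0.35. Mgp, encoding matrix Gla protein, an inhibitor of calcification, read 125, 254, 149 and 275, a log2 ratio of 1.14. The fish oil array lay close to control for this gene, and the fungal oil array close to both oils. Vim, the intermediate filament of mesenchymal and glial cells, read 299, 529, 388 and 478, a log2 ratio of 0.68.

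The whole list of extracellular matrix genes and proteases has 18 kept members, of which 13 read higher with both oils than on control and 5 lower. Fn1, which encodes fibronectin, read 34 on the control array, 126 with fungal oil, 98 with fish oil and 136 with both oils, a log2 ratio of 2.00. Fn1, Dcn and Mgp are the 3 members at least 2-fold higher. The median of the list was 0.23, where that of all kept genes was -0.03. Of all 1068 kept genes 480 read higher. The control array was the lowest of the 4 in 8 of the 18, and in 279 of the 1068. Against the mean of the single-oil arrays in place of control the list's median was 0.02, against the mean of the other 3 arrays 0.12, and without the filter on dim probe sets 0.07. Col1a1, a chain of type I collagen, differed little, at 255, 320, 278 and 283. The collagen VI chains read 64, 130, 47 and 106 for Col6a1 and 131, 154, 135 and 168 for Col6a2. The fish oil array was low for both, beside or below control. Sparc, a collagen-binding protein also made by glia, read 762 on control and 887 with both oils, a log2 ratio of 0.22. The protease gene Mmp9 read 45, 90, 85 and 76, and its inhibitor Timp2 read 283, 383, 90 and 371. Gpc1, a cell surface proteoglycan of neurons, went the other way, with 251 on control, 177 with fungal oil, 133 with fish oil and 90 with both oils. At a log2 ratio of -1.48 it is the only member of the list at least 2-fold lower, and the both-oils array was its lowest.

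A hippocampal dissection can also hold cells of the meninges, vessels and blood, whose marker lists did not all read alike. The 4 kept genes of the meninges and fibroblast list are Dcn, Mgp, Fn1 and Col1a1, which also belong to the matrix list. All of them read lowest on the control array, and their median log2 ratio was 1.57. Their summed intensity was 552 on control, 1211 with fungal oil, 876 with fish oil and 1325 with both oils. The 5 further members on the chip were too dim to be kept. Of these, the fibrillar collagen genes read -5, 44, 26 and 30 for Col3a1 and -3, 26, 9 and 13 for Col1a2. Col1a2 was above the floor on the fungal oil array only. Gjb2 read -5, 19, 6 and 14, Fmod -76, -45, -120 and 34, and Aldh1a2 -55, -31, -92 and -66. Against the mean of the single-oil arrays in place of control, the list's median was 0.40. The 5 kept genes of endothelium and pericytes summed to 681 on control, 1348 with fungal oil, 908 with fish oil and 958 with both oils. Acta2, described above, is among these 5. At 112, 598, 240 and 298 it had the largest ratio of them and weighs heavily in these sums. The median log2 ratio of the 5 genes was 0.58, and it turned to -0.15 against the single-oil arrays. Kdr, the main VEGF receptor of endothelium, read 244, 371, 404 and 364, while Pdgfrb, a receptor of pericytes, read 135, 123, 157 and 117 and Eng, an endothelial co-receptor of TGF-beta, 146, 145, 92 and 104. Of these 5 genes 3 read above control and 2 below. The summed intensity of 8 blood markers was 4010 on control, 5656 with fungal oil, 4010 with fish oil and 4774 with both oils, with Hba-a1, an alpha globin, at 2102, 3262, 2164 and 2535. The fungal oil array was the highest there, and 5 of the 8 read above control and 3 below. In whole tissue more cells of a type and more RNA per cell cannot be told apart. The part of meningeal, vascular or blood cells in the matrix gene ratios was not tested.

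**Figure D3:**
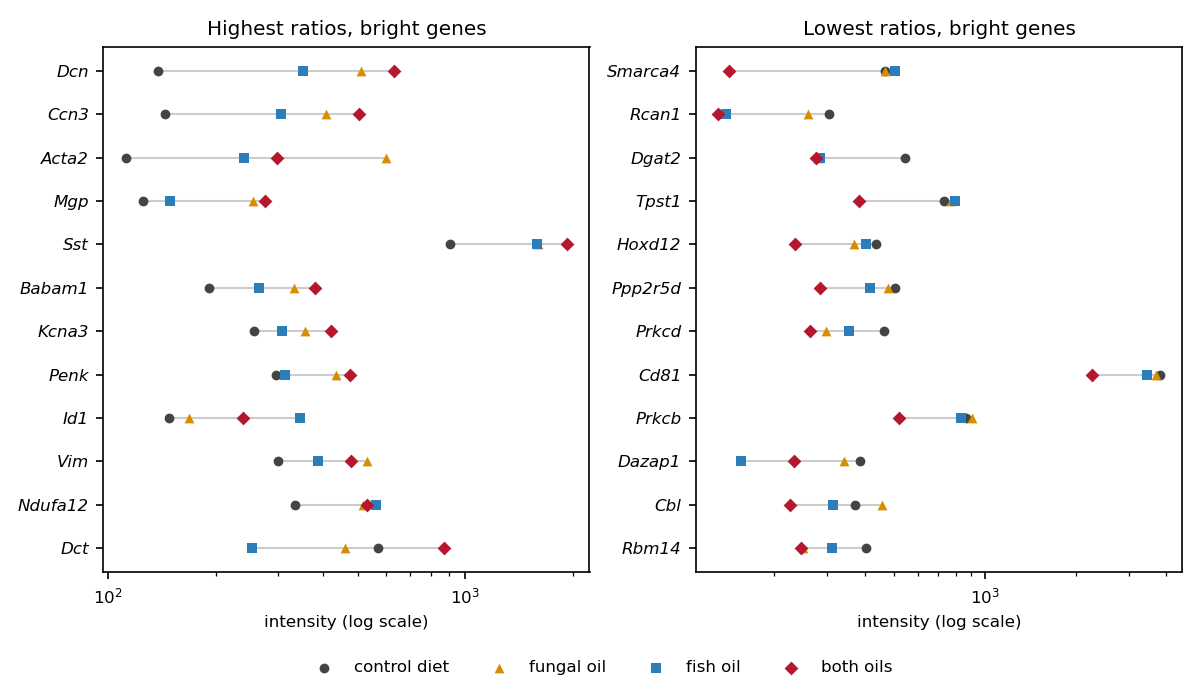
Intensity (log scale) on the 4 hippocampus arrays of the 12 bright genes with the highest (left) and the 12 with the lowest (right) log2 ratio of both oils to control, 1 symbol per array. On the left the control array is the lowest for 11 of the 12 genes, the exception being Dct. On the right the both-oils array is the lowest for 11 of the 12, the exception being Dazap1. The genes were picked by this ratio, which favours such an order. Over all 1068 kept genes the control array was the lowest in 279 and the both-oils array in 330.

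Somatostatin was the brightest gene to read at least 2-fold higher. Sst encodes the peptide of a major class of inhibitory interneurons, and its transcription is driven through a cAMP response element just before its start site. The promoter is shown because Sst is the brightest named gene past 2-fold. It lies on the minus strand of the GRCm38.p6 build at chr16:23890795-23891094, from 250 bases before to 50 bases after the start site, and RefSeq is its source. Capitals mark the element TGACGTCA, searched on both strands, a palindrome whose first base is base 203 of the sequence, 48 bases before the start site.

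Sst promoter: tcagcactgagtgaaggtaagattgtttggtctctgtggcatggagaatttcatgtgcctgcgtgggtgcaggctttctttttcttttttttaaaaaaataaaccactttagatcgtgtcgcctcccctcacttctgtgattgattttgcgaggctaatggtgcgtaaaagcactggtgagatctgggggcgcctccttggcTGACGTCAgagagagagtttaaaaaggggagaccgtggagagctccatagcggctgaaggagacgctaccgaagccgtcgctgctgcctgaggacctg

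The element occurs in 588 of 32851 mouse promoters of this length, or 1.79%, and its presence is a description of the sequence. Sst intensity was 907 on the control array, 1602 with fungal oil, 1590 with fish oil and 1930 with both oils. The 3 oil arrays lay together and the control array below them. The log2 ratio of both oils to control was 1.09, a 2.13-fold difference. A second Sst probe set read 969, 1508, 1564 and 1795, with a log2 ratio of 0.89, so both probe sets gave the same order of control and both oils. The mean over the probe sets gave 0.99, just under 2-fold, and against the mean of the single-oil arrays the ratio of the brighter one was 0.27.

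The other interneuron markers were closer to control. Gad1 read 1834 on control and 1837 with both oils, a log2 ratio of 0.00. Pvalb, a calcium-binding protein of fast-spiking interneurons, read 418, 392, 460 and 441. Neither gene had an array that stood apart. Calb2, calretinin, of another interneuron class, read 646, 877, 723 and 783. Cck, the cholecystokinin peptide gene, read 1426, 1295, 1700 and 1393. Over the 6 kept genes of the interneuron list the median log2 ratio was 0.08, and Sst alone was at least 2-fold higher by its brighter probe set. Against the mean of the single-oil arrays this median was -0.04.

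Among neuropeptide and secretory granule genes 4 of 11 read higher with both oils and 7 lower, with a median of -0.03. Penk, which encodes the enkephalin precursor and is abundant in striatum, read 296 on control, 435 with fungal oil, 313 with fish oil and 477 with both oils, a log2 ratio of 0.69. The arrays with fungal oil were thus the 2 high ones for Penk. Trh, the thyrotropin-releasing hormone gene, read 61, 78, 66 and 86, in the same order but near the dim end. Chgb, a granin of dense-core vesicles, read 3396 on control, 2506 with fungal oil, 3158 with fish oil and 2403 with both oils, a log2 ratio of -0.50. For Chgb the fungal oil arrays were the 2 low ones. Nppc, the C-type natriuretic peptide gene, read 104, 106, 88 and 69. The granin Scg2 and the proprotein processing gene Cpe stayed within 0.08 of 0 on the log2 scale. Penk is also on the marker list of neighbouring regions, which are cortex, striatum and thalamus. Of the 7 kept genes of that list 4 read above control and 3 below, with a median of 0.00. Another member, Drd2, read 192, 209, 166 and 162.

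**Figure D4:**
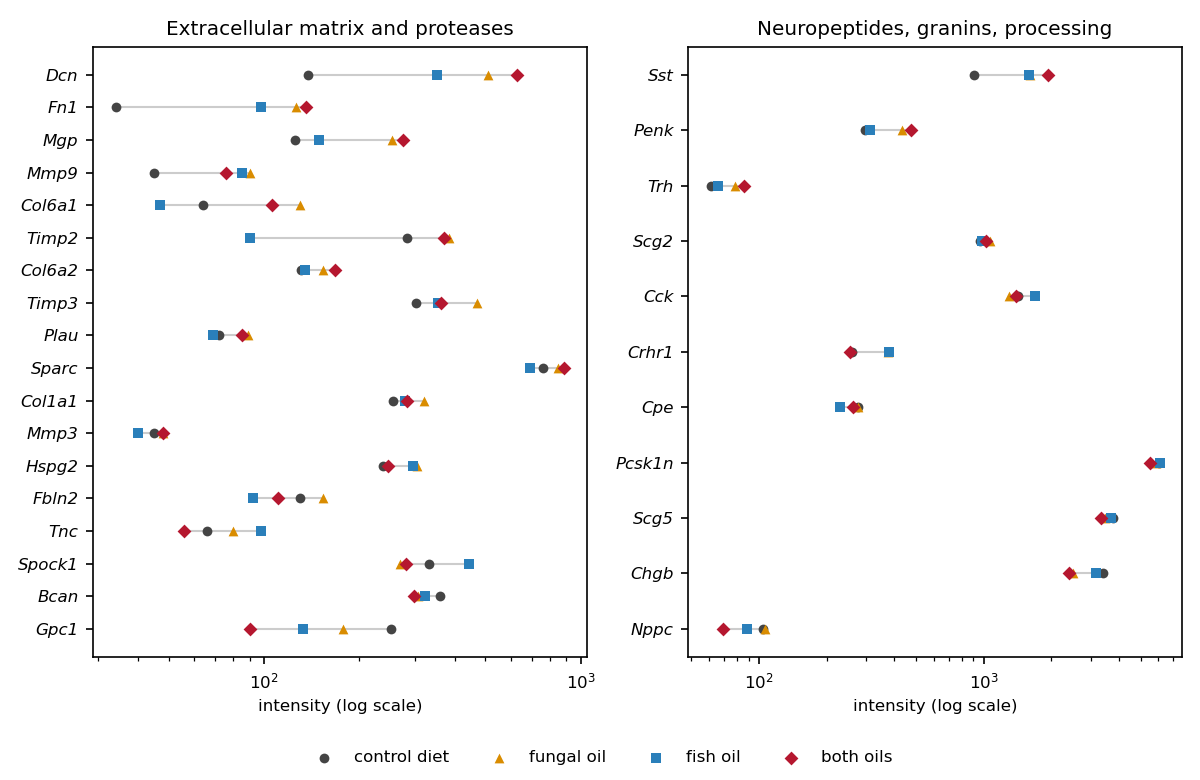
Intensity (log scale) on the 4 hippocampus arrays of every kept gene of the matrix and protease list (left, 18 genes) and of the neuropeptide list (right, 11 genes), sorted by the log2 ratio of both oils to control. Dcn, Fn1 and Mgp have control as their lowest array, Gpc1 has control as its highest, and Sst is the only peptide gene at least 2-fold higher with both oils.

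Among the bright genes lowest with both oils relative to control, Smarca4 encodes BRG1, the ATPase of SWI/SNF chromatin remodelling complexes. It read 466 on the control array, 467 with fungal oil, 502 with fish oil and 141 with both oils, a log2 ratio of -1.72. The first 3 arrays lay within a narrow range and the both-oils array was 3.30-fold below control. Tpst1, which sulphates tyrosines of secreted proteins, read 734, 772, 794 and 383, a log2 ratio of -0.94. Cd81, a tetraspanin of glia and other cells and the brightest gene of this group, read 3812, 3712, 3453 and 2276, a log2 ratio of -0.74. Prkcb, a calcium-dependent protein kinase C, read 865, 907, 832 and 519, and Tpp2, a cytosolic peptidase, read 234, 236, 231 and 144. These 5 genes are among those picked because the both-oils array lay furthest below the other 3. In each of them the control and single-oil arrays lay close together and the both-oils array alone was low, an order which that choice favours. The same holds less tightly for Hoxd12, a homeobox gene, at 436, 368, 403 and 234, for Ppp2r5d, a regulatory subunit of protein phosphatase 2A, at 502, 477, 414 and 284, and for the ubiquitin ligase gene Cbl at 370, 455, 312 and 225. A second Hoxd12 probe set was negative on all 4 arrays.

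For other genes it was the control array that was high. Dgat2, which carries out the last step of triacylglycerol synthesis, read 542 on control against 280 with fungal oil, 284 with fish oil and 275 with both oils. The 3 oil arrays were nearly equal, and the log2 ratio of both oils to control was -0.98. In liver, where the gene is far brighter, Dgat2 read 4885 and 4020 on the control arrays and 4941 with both oils. Prkcd, a calcium-independent protein kinase C of thalamic and other neurons, read 461, 297, 353 and 263, a log2 ratio of -0.81. A second Prkcd probe set gave -0.80. Rbm14, an RNA-binding coactivator, read 402, 249, 311 and 246. Rcan1, an inhibitor of calcineurin, read 304 on control, 258 with fungal oil, 138 with fish oil and 130 with both oils, a log2 ratio of -1.23. Both arrays with fish oil were low for Rcan1. Dazap1, an RNA-binding protein gene, read 384, 341, 155 and 233, and there too the arrays with fish oil were the 2 low ones.

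Some genes were furthest above the other arrays with both oils. Dct, a melanin synthesis enzyme gene, read 568 on control, 461 with fungal oil, 253 with fish oil and 872 with both oils, 0.62 above control on the log2 scale, the largest gap to the other 3 arrays among bright genes with 1 symbol. Its arrays are widely spread, and the 2 liver control arrays read 637 and 1028. Efhd2, a calcium-binding protein gene, read 179, 171, 127 and 266, and Wars, a tryptophanyl-tRNA synthetase, 256, 240, 261 and 370. Smaller differences were seen for the kinase gene Pim3 at 363, 280, 204 and 476, for the proteasome subunit gene Sem1 at 651, 536, 570 and 816, and for Id2 at 744, 650, 703 and 906. In each of the 5, which were picked by their gap to the other 3 arrays, the control and single-oil arrays lay below. Id1, which like Id2 encodes an inhibitor of basic helix-loop-helix factors, read 148, 169, 344 and 238, high on both arrays with fish oil. Ndufa12, a subunit of complex I, read 333 on control and 516, 561 and 532 on the oil arrays. Where a gene had another probe set, it did not always read alike: Babam1, a subunit of deubiquitinating complexes, read 192 on control and 380 with both oils in one set and 146 and 158 in the other. Kcna3, a voltage-gated potassium channel, read 257, 356, 306 and 421, while its other probe set was under the floor on all 4 arrays.

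Dim genes gave the largest ratios, and 1 array often set them. Smim26, a small mitochondrial membrane protein gene, read 208 on control, 192 with fungal oil, 219 with fish oil and 16 with both oils, a log2 ratio of -3.70. Its both-oils value lies next to the floor. Gm10486, a predicted gene, read 88, 76, 80 and 16. For both of them the both-oils array alone was low. St8sia5, a sialyltransferase of ganglioside synthesis, read 128, 207, 49 and -8 and was at least 8.61-fold lower with both oils than on control. Scgb1a1, a secretory protein of airway epithelium, read 639 on control, -130 with fungal oil, -216 with fish oil and 108 with both oils. The control array alone gave a high value there, and the log2 ratio of -2.56 turned to 2.86 against the single-oil arrays. Ihh, the Indian hedgehog ligand, read 106, -19, 77 and 21. Scgb1a1 and Ihh were kept only through their control values. Among those reading higher, Neurog2, a proneural transcription factor, read 21 on control and 97, 74 and 119 on the oil arrays, and Phka1, a phosphorylase kinase subunit, read 19 and 84, 81 and 78. The control array was the low one for both. Hoxc8, a homeobox gene, read 16, 37, 103 and 102, and Ercc1, a DNA repair endonuclease subunit, 39, 36, 135 and 159. Those were high on both arrays with fish oil. The chemokine gene Ccl1 read 33, 39, 2 and 186, high on the both-oils array alone, and it was kept only through that value. In all, 52 probe sets were kept only through the both-oils array. The RIKEN transcript 1810044D09Rik, which has no gene name, read 99, 25, 58 and 21 and was kept only through its control value.

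The genes of lipid metabolism, the pathways nearest to the diets, showed no common direction. Of 4 kept genes for phospholipases and eicosanoid synthesis 3 read higher with both oils and 1 lower. Pla2g7, which inactivates platelet-activating factor, read 746, 931, 612 and 865. Ptges, a prostaglandin E synthase, read 35, 69, 81 and 49, and Alox12, a lipoxygenase, 40, 42, 36 and 62. Alox12, which is among the genes counted as higher, was kept only through its both-oils value. The list's median of 0.35 fell to 0.21 with the filter on the single-oil arrays only. Against the mean of the single-oil arrays it turned to -0.01. Ptgs2, the inducible cyclooxygenase, was under the floor on all 4 arrays and not kept. Among 9 genes of fatty acid binding, synthesis and glycerolipids 4 read higher and 5 lower, with a median of -0.06. Fabp5, a carrier that takes docosahexaenoate into brain cells, was level at 807, 783, 823 and 823. Fasn, fatty acid synthase, read 645, 666, 718 and 521, and Thrsp, a lipogenic regulator, 136, 102, 111 and 84. Dgat2, described above, had the lowest ratio of the list.

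Fatty acid oxidation and PPAR genes had 6 members above control and 4 below, with a median of 0.05. Acadm, medium chain acyl-CoA dehydrogenase, the enzyme that acts on the medium chain fatty acids that the oils replaced, read 150, 146, 130 and 149. Hsd17b4, a peroxisomal oxidation enzyme, read 256, 239, 261 and 262. Ppara, the fatty acid receptor of oxidation genes, read 114, 20, 46 and 139, so the control and both-oils arrays were the high ones. Crat, carnitine acetyltransferase, read 31, 52, 32 and 67 and was the member at least 2-fold higher, kept only through its both-oils value. Of 7 cholesterol genes 3 read higher and 4 lower. Apoe, the main lipid carrier of brain, read 4125 on control and 4720, 4838 and 4651 on the oil arrays, a log2 ratio of 0.17. Apod, another glial lipid carrier, read 550, 730, 772 and 732. Apoc1 read 153 on control, 96 with fungal oil, 86 with fish oil and 59 with both oils, a log2 ratio of -1.37, lowest with both oils and highest on control. The sphingolipid list had 4 members above and 4 below control, and the medians of both lists lay within 0.07 of 0.

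Of 7 kept genes of synaptic vesicles and release 6 read lower with both oils than on control, with a median of -0.21. The both-oils array was the lowest of the 4 in 5 of the 7. Over the bright genes alone the list's median was -0.09. Vamp2, the vesicle SNARE of transmitter release, read 453, 472, 473 and 341, and the small GTPase gene Rab3d 83, 106, 90 and 48. Ap2a2, an adaptor of vesicle endocytosis, read 194, 175, 151 and 128. In these 3 genes the both-oils array was the lowest. Syp, synaptophysin, read 2738, 2844, 3032 and 2569, a log2 ratio of -0.09. The brightest of the list, the adaptor gene Ap2m1, also had a ratio of -0.09, at 4114, 3765, 4055 and 3861. It was lowest with fungal oil. Among glutamate receptor genes Gria1, an AMPA receptor subunit, read 1854, 1948, 1777 and 1455, a log2 ratio of -0.35, and Gria2 1943, 1993, 1986 and 1813. The calcium-dependent kinase Camk2b read 2643, 2557, 2543 and 2213. Each of these 3 was lowest with both oils, while 3 genes of the list read above control and 4 below, and its median of -0.03 was that of all kept genes. Ion channel genes read lower in 9 of 12 and higher in 2, with a median of -0.13. Ryr2, the calcium release channel, read 513, 586, 606 and 395, and the calcium channel gene Cacna1a 113, 70, 68 and 58. For all kept genes 576 of 1068 read lower and 480 higher, and the both-oils array was the lowest in 330 of them.

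Receptors of monoamines and other small transmitters read higher in 11 of 18 genes and lower in 7, with a median of 0.10 that turned to -0.05 against the single-oil arrays. The 3 at least 2-fold higher were all dim. Htr4, a serotonin receptor, read 12, 130, 76 and 89 and was at least 5.99-fold higher than control. Htr5b read 36, 107, 107 and 75, and Chrm4, a muscarinic receptor, 42, 72, 68 and 91. The control array was the low one in all 3. The brightest of the list, the muscarinic receptor gene Chrm1, was level at 710, 668, 720 and 696. Growth factor genes read lower in 8 of 10. Bdnf, the activity-dependent neurotrophin, read 197 on control, 173 with fungal oil, 160 with fish oil and 128 with both oils, a log2 ratio of -0.62. Mdk, midkine, a heparin-binding growth factor, read 85, 155, 101 and 212, a log2 ratio of 1.32, and like Penk it was higher on both arrays with fungal oil. Among immediate early genes 3 read higher and 6 lower. Jun read 439, 550, 462 and 584, Fosl2 174, 167, 90 and 107, and Ier3 27, 111, 56 and 76. Cdkn1a, a cell cycle inhibitor, read -1, 430, -6 and 46, so that only the fungal oil array gave a high value, and with both oils it was at least 3.10-fold higher than control.

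Several lists of general cell functions read mostly lower, by small amounts. Ribosomal protein genes read lower in 11 of 12 by a median of -0.10, with Rpl28 lowest at 2722 on control and 1778 with both oils. Relative to control the list's median was -0.20 with fungal oil alone and 0.01 with fish oil alone. The both-oils array was the lowest in 4 of the 12, and against the mean of the single-oil arrays the median was -0.03. Proteasome and ubiquitin genes read lower in 12 of 16, with a median of -0.12, and RNA splicing genes in 12 of 15, with a median of -0.18. Of all 1068 kept genes 576 read lower. None of these 3 lists has a member past 2-fold. Among all kept genes 4.21% read at least 2-fold higher and 2.62% at least 2-fold lower. Among bright probe sets the shares were only 0.612% and 0.673%, so few such members would be found in lists of this size. Respiratory chain genes read higher in 9 of 14 with a median of 0.05, and glycolysis and citric acid cycle genes in 8 of 11 with a median of 0.06. Slc25a4, the adenine nucleotide carrier, read 2111 on control and 2657, 2947 and 3108 on the oil arrays, a log2 ratio of 0.56. The astrocyte markers had a median of -0.12 and the microglial ones of -0.16, in which Csf1r, the CSF1 receptor, read 181, 208, 178 and 117 and C1qb, a complement subunit, 250, 279, 320 and 348. All 4 kept genes of interferon and antigen presentation read lower than control, by at most 0.26.

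**Figure D5:**
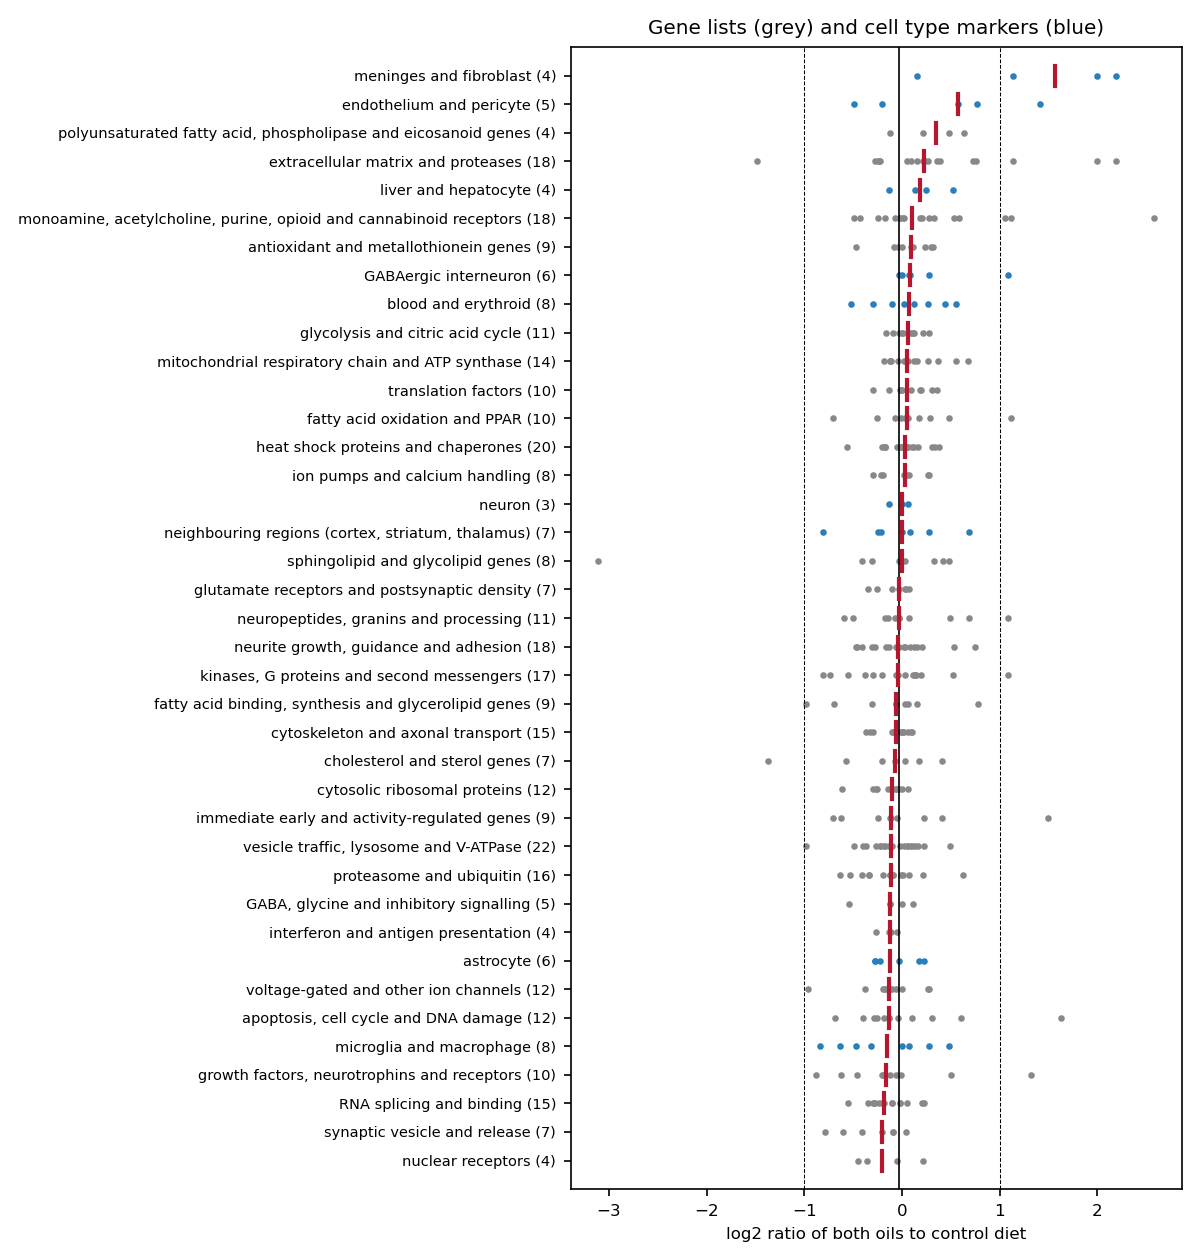
Log2 ratio of both oils to control for every kept gene (dots) of each list with at least 3 kept genes, the number in brackets, grey for pathways and blue for cell type markers, with the list's median as a red bar. The solid line is the median of all kept genes, -0.03, and the dashed lines are 2-fold; the meninges and fibroblast list stands highest at 1.57 with 4 genes, and most medians lie between -0.21 and 0.23.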

How the data were processed

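RNA of the hippocampus was measured on 1 oligonucleotide array of type chip B per diet. The authors deposited intensity values per probe set, already background-subtracted; for software and scaling, the sources used here give nothing. The mean of each array after trimming 2% at each end lay between 148.4 and 148.8, so values were used as deposited. Values below a floor of 0.1 times that mean were set to it before log2. Gene symbols come from the platform annotation: 2001 probe sets have 1 symbol, 27 several and 4512 none. Named genes are the 12 bright genes with the largest ratios each way, the 8 furthest each way from the other 3 arrays, the 5 largest each way among dimmer genes above the floor, and up to 4 members per list of 31 pathway and 12 marker lists; further list members were named after their values were seen. Members, lists and rules were chosen with earlier results of these data known. With 1 array per diet no test was made. Calculations used Python 3.11.15, numpy 2.4.6 and pandas 2.3.3 and were tested on simulated data. Alternatives were the normalization, floor, filter, probe set rule and reference array. The number of arrays and signal over background limit precision.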

Additional observations from a re-analysis of the deposited data

Results flagged for a closer look

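Acta2, the actin of smooth muscle, read higher with both oils in hippocampus, by a log2 ratio of 1.41, and lower in liver, where it read 209 and 227 on the control arrays and 61 with both oils. Ihh read lower with both oils in hippocampus, by a log2 ratio of -2.34, while in liver it was under the floor on both control arrays and 59 with both oils. Acta2 and Ihh are listed because the tissues point in opposite directions. In hippocampus Ihh was kept only through its control value. With 1 array per tissue for both oils, the difference between tissues was not tested.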

How the results depend on the processing

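No paired analysis was possible because each diet has 1 hippocampus array, and for the same reason no replicate could be left out. Signal over background limits the counts. Without a filter on dim probe sets 287 probe sets read at least 2-fold higher and 211 lower. Among those at or above the 75th percentile there were 10 and 11, the SD was 0.32, and the both-oils array lay 2-fold above the other 3 in 0 and below in 6. With 2.5 times the floor it lay below in 20. Of 27 described genes past 2-fold, 27 remained so after quantile normalization, after centring and with 0.5 times the floor, 25 with 2.5 times the floor and 26 with the mean over probe sets, the one lost being Sst. Filtering on the single-oil arrays alone left 22 of the 27 genes, and the 75th percentile 7, all still past 2-fold. Against the mean of the other 3 arrays 11 of the 27 remained, and the ratio of Scgb1a1 turned to 1.05. Against the mean of the single-oil arrays, a choice made after seeing the data, 6 remained, and ratios turned to -0.35 for Acta2, -0.80 for Cdkn1a, -0.16 for Htr4, -0.053 for Ier3, -0.081 for Phka1 and 2.86 for Scgb1a1. That reference leaves out the control array. The medians of 13 of 39 lists changed sign against the single-oil arrays and 7 against the other 3 arrays. At the 75th percentile 7 did, under quantile normalization 2, with the filter on the single-oil arrays 1 and with the mean over probe sets 1. Without the filter 9 are counted as changed, but most of these moved from below 0 to 0 or to 0.0012. The latter is the log2 ratio of a gene under the floor on both arrays, so these are not reversals. The neuron list moved from 0.006 to -0.061.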

Other observations

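Kinase and second messenger genes split in direction, 8 above and 9 below control, and 1 of 17 read at least 2-fold higher: Pde1a, a calmodulin-dependent phosphodiesterase of cyclic nucleotides, read 79 on control, 95 with fungal oil, 82 with fish oil and 168 with both oils, a log2 ratio of 1.09. The both-oils array alone was high. Gng4, a G protein gamma subunit, read 263 on control and 161, 160 and 179 on the oil arrays, a log2 ratio of -0.56, with the control array alone high. The strongly expressed subunit gene Gnas was level, at 5076 and 5566 with a log2 ratio of 0.13.

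Among genes of neurite growth and adhesion 8 of 18 read higher and 10 lower. Dpysl2, a collapsin response mediator of axon growth, read 81 on control and 167, 134 and 136 on the oil arrays, a log2 ratio of 0.75. Marcks, an actin-binding substrate of protein kinase C, read 389, 470, 505 and 282, a log2 ratio of -0.46, and the guidance receptor gene Epha4 read 594, 589, 717 and 428, a log2 ratio of -0.47. For both the both-oils array was the lowest. Among chaperones, Hspa5 of the endoplasmic reticulum read 669, 669, 812 and 828 and Cryab, a small heat shock protein, 507, 404, 693 and 661, each higher on both arrays with fish oil.

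In vesicle traffic and lysosome genes 9 of 22 read higher and 13 lower, with a median log2 ratio of -0.11. Snx2, a sorting nexin of endosomes, read 71, 122, 98 and 36, the lowest of the list at -0.98. Cytoskeleton genes read higher in 6 of 15 with a median of -0.06, translation factors in 6 of 10 with a median of 0.05, and antioxidant genes in 6 of 9 with a median of 0.09. None of these lists has a member past 2-fold, where 4.21% of all kept genes read at least 2-fold higher and 2.62% lower. The 4 kept liver markers, in which the serum protein Serpina1a read 153, 199, 238 and 220, had a median of 0.19.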
